A study of Mus musculus with 60 samples.

Results

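The collagen and extracellular matrix genes described here are 36 genes that encode collagens, elastic fibre proteins, small leucine-rich proteoglycans, matricellular proteins and collagen cross-linking enzymes. They were followed across 60 skin carcinomas from 55 mice. A member was represented by the probe set (a group of array probes for 1 transcript) that carries its symbol alone, the one with the highest mean where there were several. By this rule 34 of the 36 members, among 18194 genes on the array, had a probe set; Fbn1 and Loxl2 had none. All 34 passed the filter on low values, which kept 12791 genes that exceeded the median of an array in 8 or more of the 60. Col11a1 passed on 33 arrays, Fmod on 40, Ogn on 56, Col14a1 on 57 and Mfap5 on 59; the other members were above the median on all 60.

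The mice were FVBBX animals, bred by crossing SPRET/Ei with FVB/N and mating the hybrids back to FVB/N, so each animal had a different genotype. Every tumour arose on dorsal back skin after the carcinogen dimethyl benzanthracene (DMBA) and the promoter tetradecanoyl-phorbol acetate (TPA), and no untreated skin was analysed here. By the label for diagnosis, 38 tumours from 35 mice were squamous cell carcinomas (SCC), 14 tumours from 13 mice were spindle carcinomas, and 8 tumours from 7 mice had no histology label. The SCC mice comprised 13 with well, 13 with moderately and 9 with poorly differentiated tumours, and all spindle carcinomas but 1 were labelled poor. Nodal status was given with a histology for 33 mice, of which 14 were node-positive (10 SCC, 4 spindle) and 19 node-negative (14 SCC, 5 spindle). Papilloma counts at 20 weeks placed 17 mice in the resistant class (under 2) and 16 in the sensitive class (over 7). The label for p53 mutation was positive in 8 SCC mice, 5 of them with poorly differentiated tumours, and in 4 spindle mice. By label 32 mice were female and 23 male, and the origin of each mouse was labelled F1BSF1, F1BSF2, F1BSF3 or F1BSF4. Ages of the mice are not given in the sources used here. The 2 tumours of a mouse were averaged, so each value below is a mouse.

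Matrix genes are transcribed mainly by fibroblasts and other mesenchymal cells of the tumour stroma, although epithelial cells make basement membrane collagens and spindle carcinomas are themselves cells that have taken on a mesenchymal shape. Fibrillar collagens such as types I, III and V form the tensile fibres of skin. Fibronectin, fibulins and microfibril proteins link cells and elastic fibres to them, proteoglycans such as decorin coat the fibrils, and matricellular proteins such as tenascin C and periostin modulate adhesion rather than bear load. In whole tumours, fewer cells of a type and less RNA per cell cannot be told apart.

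Some arrays went against their labels. On 12 of 60 arrays (7 SCC, 3 spindle, 2 without histology) Xist and Y-linked levels did not match the labelled sex. The tumours SCC 21 and SCC 22, from different mice, correlated at 0.89 over gene-centred values, and SCC 24 and spindle 14 at 0.79. Each tumour's mean over 8 epithelial markers (Epcam, Cdh1, Krt5, Krt14, Trp63, Dsp, Dsc2 and Cldn4) lay below the spindle median in 3 SCC tumours (SCC 21, SCC 22 and SCC 24) and above the SCC median in 4 spindle tumours (spindle 1, 5, 6 and 9). The calls below are therefore also given without such arrays where that changes them.

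Within SCC the matrix genes varied together from mouse to mouse. Their standard deviations (SD) over the 35 SCC mice ran from 0.46 log2 units for Col18a1 to 1.36 for Ogn, with a median of 0.71 against 0.37 for all genes tested. All 34 members varied more than the median gene, and 11 of them lay above the 90th percentile of all genes (0.83). With Col1a1, the alpha 1 chain of type I collagen, as the reference, Pearson's r over the 35 SCC mice was above 0 for all 33 other members, from 0.36 to 0.91, with a median of 0.65 against -0.01 over the 12790 other genes. Of the 33, 30 passed the threshold with a positive r in a permutation test adjusted over all genes (100000 resamples, two-sided), against 5.44% of all genes. Among the 100 genes of highest r, 15 were members. The members were listed together as matrix genes, so their correlation describes the list rather than singling out genes from the data.

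The closest to Col1a1 was Col1a2, which encodes the other chain of type I collagen, with r = 0.91 and Spearman's rho = 0.89 (permutation p = 1e-05 for both, the smallest that these resamples can give; adjusted p = 0.00156 and 0.00173). Col5a1, a type V chain that regulates the diameter of type I fibrils, followed with r = 0.89 and rho = 0.85 (permutation p = 1e-05 for both; adjusted p = 0.00156 and 0.00173). Col6a2, a chain of the beaded-filament collagen VI, gave r = 0.87 and rho = 0.83, with the same permutation p-values. Leaving out the 2 mice farthest from the Col1a1 median (SCC 27 and SCC 37) gave r = 0.89, 0.86 and 0.84. Type I and type V chains assemble into the same fibrils. Without the arrays of unmatched sex markers, which left 28 mice, 19 of the 33 members passed against 1.75% of all genes, and the member median of r was 0.66 with all 33 above 0.

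At the other end, Ogn (osteoglycin, a small leucine-rich proteoglycan) had r = 0.36 and rho = 0.30 (permutation p = 0.0305 and 0.0763; adjusted p = 0.142 and 0.241), and 0.24 without the 2 mice. Fmod (fibromodulin, which binds collagen fibrils) had r = 0.37 and rho = 0.36 (permutation p = 0.0302 and 0.0356; adjusted p = 0.142 and 0.159), and 0.32 without them. Col18a1, a basement membrane collagen, had r = 0.38 and rho = 0.43 (permutation p = 0.0265 and 0.01; adjusted p = 0.131 and 0.0815), and 0.42 without them. No member had a negative r with Col1a1 within SCC.

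The 5 genes outside the list that followed Col1a1 most closely were chosen by the highest r. Gpx3, a secreted glutathione peroxidase, had r = 0.87 and rho = 0.84, Ccn4, a matricellular protein, 0.87 and 0.83, and Creb3l1, a transcription factor of the secretory pathway, 0.85 and 0.81. Mfap4, a microfibril-associated glycoprotein, had 0.85 and 0.85, and Olfml3, a secreted glycoprotein, 0.84 and 0.84. For these 5 genes the permutation p was 1e-05 and the adjusted p 0.00156 for r and 0.00173 for rho; without the 2 mice r lay between 0.81 and 0.86.

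Some markers of stromal cells followed Col1a1 as well. Of 10 fibroblast markers outside the list 7 passed the threshold with a positive r, with a median of 0.52; Pdgfrb reached 0.70 and Pdgfra 0.66. The medians were 0.48 for 7 smooth muscle and pericyte markers, of which 4 passed, and 0.42 for 8 macrophage markers, of which 1 passed. They were 0.34 for 8 endothelial markers, of which 1 passed, and -0.18 for 8 epithelial markers, of which none passed. By Spearman's rho 6 fibroblast, 1 smooth muscle and pericyte, 1 endothelial and no macrophage marker passed, against 565 of 12790 genes. Among the epithelial markers Krt5, Krt14 and Epcam had a positive rho (0.37, 0.36 and 0.03) and the others a negative one. The part of cell composition in the correlation was not tested.

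**Figure D1:**
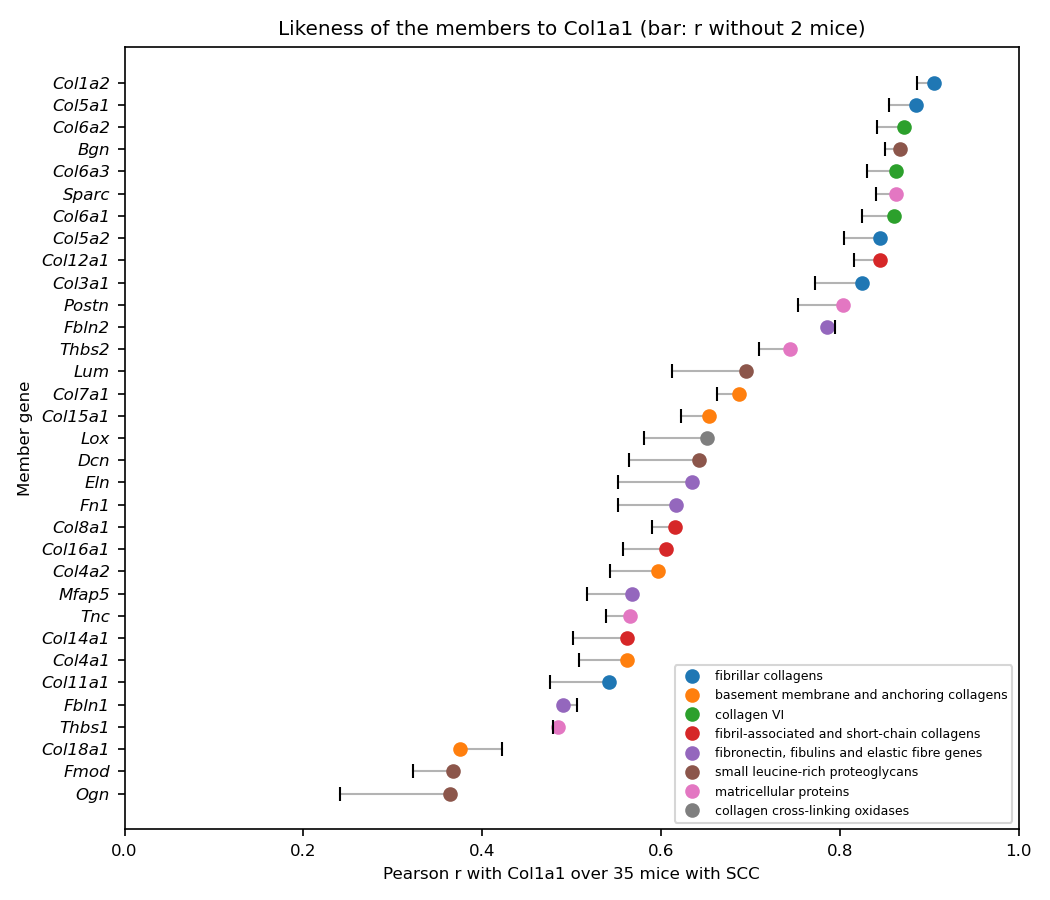
Pearson correlation (x axis, 0 to 1) of each of 33 members (y axis) with Col1a1 over 35 mice with SCC; dots are coloured by role and black bars mark r without the 2 mice farthest from the Col1a1 median. The fibrillar and type VI collagens sit at the top between 0.82 and 0.91 with the exception of Col11a1 at 0.54, and Col18a1, Fmod and Ogn lie lowest, between 0.36 and 0.38.

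The promoters of Col1a2 and Col5a1, the 2 members closest to Col1a1, are shown because these genes moved together across SCC. Each sequence runs 5′ to 3′ on the plus strand from 250 bases before to 50 after the RefSeq start site in GRCm38.p6, at chr6:4505368-4505667 for Col1a2 and chr2:27886175-27886474 for Col5a1. Capitals mark matches to any of 4 motifs, searched on both strands and allowed to overlap. The TATA box was searched as TATAAA. The box bound by the factor NF-Y was searched as CCAAT, the GC box bound by Sp proteins as GGGCGG, and the AP-1 site, which Fos and Jun proteins bind, as TGANTCA.
Col1a2: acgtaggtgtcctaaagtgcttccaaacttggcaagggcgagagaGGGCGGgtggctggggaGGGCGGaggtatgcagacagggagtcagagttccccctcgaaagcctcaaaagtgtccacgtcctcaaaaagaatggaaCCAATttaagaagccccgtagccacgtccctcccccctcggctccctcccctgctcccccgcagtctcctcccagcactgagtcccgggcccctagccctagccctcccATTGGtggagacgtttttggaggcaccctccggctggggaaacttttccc
Col5a1: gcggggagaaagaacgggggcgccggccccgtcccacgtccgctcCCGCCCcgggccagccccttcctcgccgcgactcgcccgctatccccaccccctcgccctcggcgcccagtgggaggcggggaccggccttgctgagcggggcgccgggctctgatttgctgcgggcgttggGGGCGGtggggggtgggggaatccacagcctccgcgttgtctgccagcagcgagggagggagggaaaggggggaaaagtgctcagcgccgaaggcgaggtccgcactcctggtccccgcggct
Col1a2 held CCAAT and GGGCGG, each at 2 places, and Col5a1 held GGGCGG at 2 places. The RefSeq table held 29 promoters of 24 members, of which 17 promoters held GGGCGG, 10 CCAAT, 6 TATAAA and 1 TGANTCA. Over all 32851 promoters the shares were 35.7%, 37.4%, 13.6% and 7.81%. Counted by gene, 15 of the 24 members held GGGCGG, 10 CCAAT, 5 TATAAA and 1 TGANTCA in at least 1 promoter. The table gave no entry for Col1a1, Col5a2, Col12a1, Col14a1, Fn1, Eln, Mfap5, Dcn, Lum, Thbs1, Lox and Loxl2.

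The main contrast asked how the matrix genes of spindle carcinomas differ from those of SCC. Fibronectin, decorin, osteoglycin and Col16a1 were higher in spindle carcinomas, and fibulin 1, Col12a1 and Mfap5 were lower, so the called members ran in both directions. Of the 34 members, 4 rose, 3 fell and 27 did not pass the threshold (limma, adjusted p under 0.05 over 12791 genes). Across all genes tested 15.5% rose, 11.0% fell and 26.5% were called in either direction. The share of members called was not above that background. The difference was positive for 18 members (52.9%, against 54.2% of all genes), with a member median of 0.03 log2 against 0.02 over all genes. With arrays scaled to a common 75th percentile, the calls over all genes changed from 1985 higher and 1406 lower to 1599 higher and 1658 lower, while the members stayed at 4 higher and 3 lower. Values of the groups overlapped for all 34 members.

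**Figure D2:**
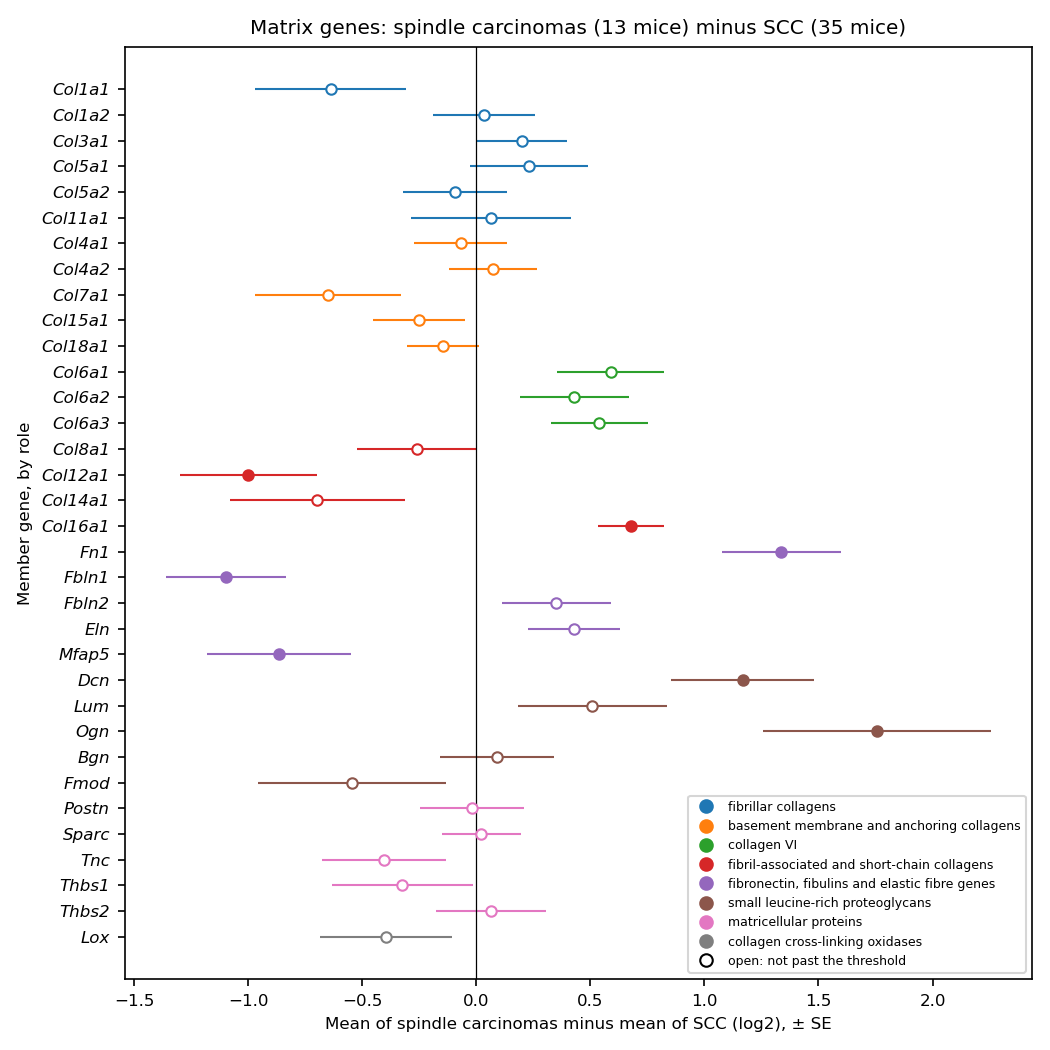
Difference of means, spindle minus SCC, in log2 units (x axis) for the 34 measured members (y axis, grouped by role), with bars of 1 standard error; filled points passed the threshold of 0.05 on the adjusted p. Fn1, Dcn, Ogn and Col16a1 lie to the right of 0 and Fbln1, Col12a1 and Mfap5 to the left, while the fibrillar collagens and matricellular proteins straddle it.

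Among the fibrillar collagens none of 6 members passed the threshold. Col1a1 ran from 10.41 over a median of 11.96 to 13.49 in SCC and from 7.65 over 11.72 to 13.02 in spindle carcinomas. Both ranges overlapped, with 8 of 13 spindle mice below the SCC median and 2 below the lowest SCC mouse. The difference was -0.64 ± 0.33 (SE), with an adjusted p of 0.151, and it fell to -0.33 when the single mouse spindle 10 was left out. Col1a2, the partner chain, differed by 0.03 ± 0.22, and the difference between the 2 chains was not tested. Col5a1 ran from 8.09 over 10.12 to 11.66 in SCC and from 8.53 over 10.22 to 11.84 in spindle carcinomas, a difference of 0.23 ± 0.26 (adjusted p = 0.548). The groups overlapped, with 1 spindle mouse above the highest SCC mouse. Col3a1, Col5a2 and Col11a1 differed by 0.20, -0.09 and 0.06.

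The basement membrane and anchoring collagens also gave no call among 5 members. Col7a1, the anchoring fibril collagen that basal keratinocytes secrete, ran from 6.67 over 8.59 to 9.83 in SCC and from 5.67 over 7.65 to 10.29 in spindle carcinomas. The spindle mice spanned a wider range on both sides, and 8 of 13 lay below the SCC median. The difference was -0.65 ± 0.32, with an adjusted p of 0.125. Col15a1, found at the border of basement membranes, ran from 5.73 over 6.78 to 8.21 in SCC and from 5.64 over 6.45 to 7.65 in spindle carcinomas, a difference of -0.25 ± 0.20 (adjusted p = 0.378). Col4a1, Col4a2 and Col18a1 differed by -0.07, 0.07 and -0.15.

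The chains of collagen VI, which anchors cells to the fibrillar network, all had higher means in spindle carcinomas but stayed short of the threshold. Col6a1 ran from 8.84 over 10.56 to 11.70 in SCC and from 10.37 over 11.06 to 12.03 in spindle carcinomas, with 11 of 13 spindle mice above the SCC median. Its difference was 0.59 ± 0.23, with an adjusted p of 0.0556. Col6a3 ran from 9.73 over 11.39 to 12.43 and from 10.81 over 12.00 to 12.44, again with 11 of 13 spindle mice above the SCC median. Its difference was 0.54 ± 0.21, with an adjusted p of 0.0521. Both passed the threshold in 14 of 48 fits that each left out 1 mouse. Col6a2 differed by 0.43 ± 0.24 (adjusted p = 0.183).

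In the group of fibril-associated and short-chain collagens the calls opposed each other. Col12a1, which bridges type I fibrils, ran from 8.76 over 10.09 to 11.42 in SCC and from 6.50 over 8.80 to 11.05 in spindle carcinomas. Of the 13 spindle mice, 6 lay below the lowest SCC mouse and 5 above the SCC median. Col12a1 fell by 1.00 ± 0.30 on the log2 scale, which is 2.00-fold lower, with an adjusted p of 0.0106. Col16a1, which associates with fibrils and microfibrils, ran from 7.26 over 8.14 to 9.52 in SCC and from 8.20 over 8.89 to 9.69 in spindle carcinomas. All 13 spindle mice lay above the SCC median, and their SD was 0.34 against 0.49 in SCC. Col16a1 rose by 0.68 ± 0.15, or 1.60-fold, with an adjusted p of 0.000751. Col14a1, another fibril-associated collagen, ran from 4.33 over 6.95 to 9.06 and from 3.55 over 5.73 to 9.38, a difference of -0.70 ± 0.38 (adjusted p = 0.177). Col8a1, a short-chain collagen, differed by -0.26 ± 0.26.

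Fibronectin and the fibulins also held calls in both directions. Fn1, the fibronectin that cells bind through integrins, ran from 9.86 over 11.48 to 13.24 in SCC and from 11.62 over 13.15 to 13.56 in spindle carcinomas. All 13 spindle mice lay above the SCC median and 5 above the highest SCC mouse. Fn1 rose by 1.34 ± 0.26, or 2.53-fold, with an adjusted p of 0.000408. Its second probe set, not used for the calls, differed by 2.16 in the same direction.

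Fbln1, a fibulin that binds fibronectin and basement membranes, ran from 6.43 over 8.54 to 9.65 in SCC and from 5.34 over 7.49 to 9.39 in spindle carcinomas. Of the 13 spindle mice, 10 lay below the SCC median. Fbln1 fell by 1.10 ± 0.26, or 2.14-fold, with an adjusted p of 0.00196. Mfap5, a microfibril-associated glycoprotein, ran from 6.19 over 7.93 to 9.80 and from 3.94 over 7.01 to 8.90. It fell by 0.87 ± 0.32, or 1.82-fold, with an adjusted p of 0.0363, and 8 of 13 spindle mice lay below the SCC median. The Mfap5 call was lost in 7 of 48 fits that each left out 1 mouse; without spindle 10 the difference was -0.605 and the adjusted p 0.1245. Fbln2 and Eln (elastin) differed by 0.35 ± 0.24 and 0.43 ± 0.20 with adjusted p of 0.293 and 0.111.

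Of the 5 small leucine-rich proteoglycans 2 rose. Ogn ran from 4.02 over 6.27 to 9.83 in SCC and from 4.97 over 7.70 to 10.85 in spindle carcinomas, where 5 of 13 mice lay above the highest SCC mouse and 3 below the SCC median. Ogn had the widest spread of the members in both groups, with an SD of 1.36 in SCC and 2.09 in spindle carcinomas. It rose by 1.76 ± 0.50, or 3.38-fold, with an adjusted p of 0.00738. Dcn, decorin, which limits fibril growth and binds TGF-beta, ran from 8.22 over 10.55 to 12.79 and from 10.37 over 11.78 to 12.72. Of the 13 spindle mice, 12 lay above the SCC median, though none above the highest SCC mouse. Dcn rose by 1.17 ± 0.31, or 2.25-fold, with an adjusted p of 0.00474. Lum (lumican), Bgn (biglycan) and Fmod differed by 0.51, 0.09 and -0.55, none past the threshold. The other probe sets of Fmod, not used here, differed by -0.14 to -0.05. Over all members 30 of 41 other probe sets had the sign of the one used. Among the called members, the other probe set of Ogn differed by 1.83, of Mfap5 by -0.76 and of Dcn by 0.32. Those of Fbln1 differed by -0.90 and 0.01, and those of Col12a1 by -0.81, -0.02 and -0.01. The small differences came from probe sets of low mean value, 4.21 for Dcn, 4.71 for Fbln1, and 2.85 and 2.71 for Col12a1.

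The matricellular proteins and the cross-linking oxidase Lox gave no call. Tnc (tenascin C, raised in wounds and tumour stroma) ran from 9.30 over 11.03 to 12.46 in SCC and from 7.56 over 10.59 to 12.48 in spindle carcinomas, a difference of -0.41 ± 0.27 (adjusted p = 0.280). Thbs1 (thrombospondin 1) ran from 7.20 over 9.36 to 11.05 and from 6.82 over 9.04 to 10.80, a difference of -0.32 ± 0.31 (adjusted p = 0.470). The ranges overlapped in both genes, with 8 of 13 spindle mice below the SCC median in each. Postn, Sparc and Thbs2 differed by -0.02, 0.02 and 0.06. Lox, which starts collagen cross-linking, ran from 8.47 over 9.83 to 11.63 and from 6.45 over 9.54 to 11.37, with 3 spindle mice below the lowest SCC mouse. Its difference was -0.40 ± 0.29 (adjusted p = 0.330). The other probe sets of Lox differed by 0.75 and -0.27.

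**Figure D3:**
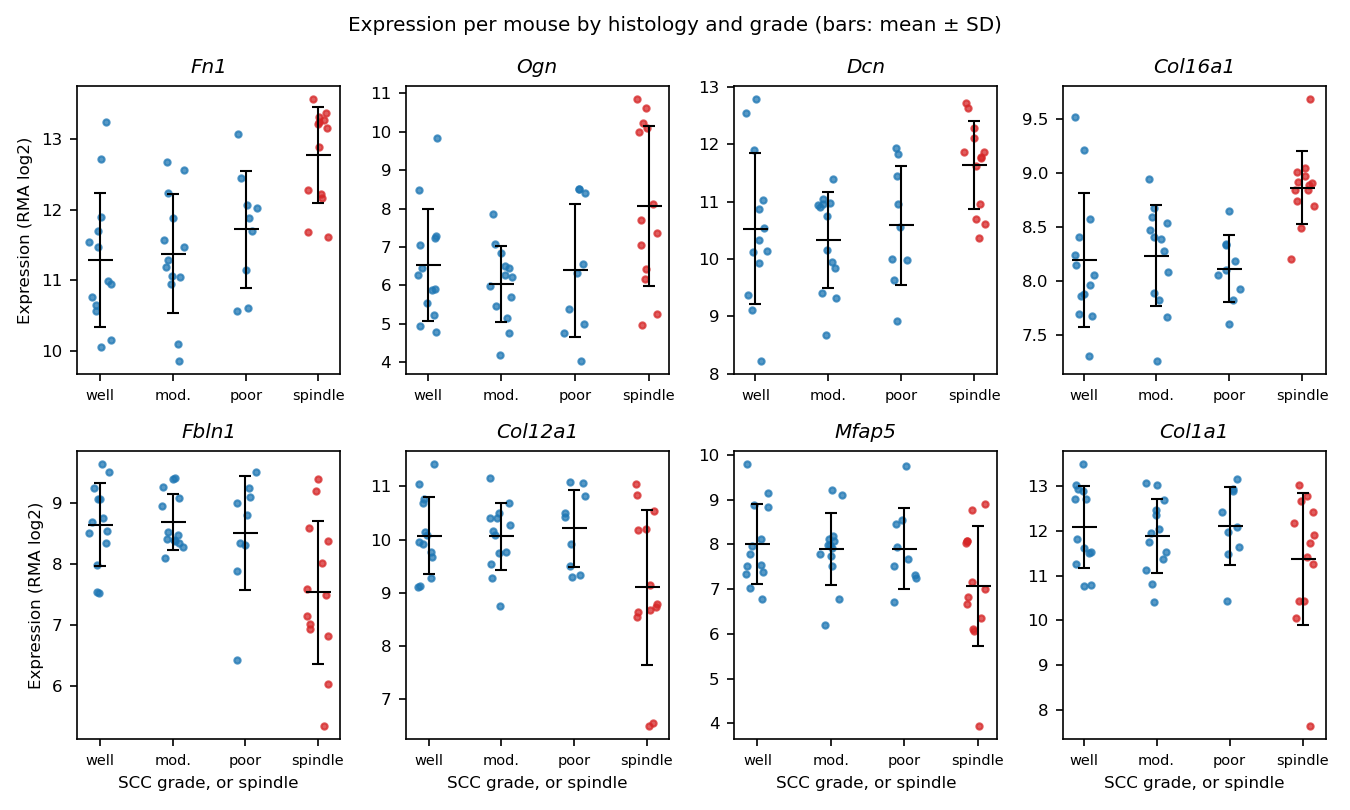
Expression (y axis, RMA log2) of the 7 called members and Col1a1, 1 point per mouse, by SCC grade (13 well, 13 moderate, 9 poor) and in 13 spindle carcinomas; black bars give mean ± SD and the y axes do not start at 0. Fn1, Dcn and Col16a1 cluster high in the spindle mice, Ogn spreads from 4.97 to 10.85, and spindle 10 is the point at 7.65 for Col1a1.

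Single mice held many of the extremes. Spindle 10 had the lowest value of the 13 spindle mice for 20 of the 34 members, and spindle 11 the highest for 14. Among SCC mice SCC 27 was lowest for 14 of the 34 and SCC 24, whose epithelial markers went against its label, was highest for 18. Leaving out any 1 mouse kept the calls of Fn1, Ogn, Dcn, Col16a1, Fbln1 and Col12a1. Without the arrays of unmatched sex markers 6 members rose and 1 fell, against 23.4% of all genes called: Col6a1 (0.68, adjusted p = 0.04997) and Col6a3 (0.71, adjusted p = 0.0262) joined those that rose, while Col12a1 (-0.71, adjusted p = 0.102) and Mfap5 (-0.67, adjusted p = 0.1565) no longer passed. The SAM-type statistic called 8 members higher and 6 lower, against 31.6% of all genes. Among the members described with full values, leaving out spindle 10 brought the difference to -0.15 for Tnc and -0.15 for Lox, leaving out spindle 13 brought it to -0.14 for Thbs1, and Col5a1 ran from 0.10 without spindle 11 to 0.37 without spindle 10.

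The promoters of Ogn and Fbln1, which were called in opposite directions, lie at chr13:49607765-49608064 and chr15:85205699-85205998 on the plus strand (RefSeq, GRCm38.p6); Fbln1 has 2 start sites and the first in the table is shown. Capitals mark the motifs named above.
Ogn: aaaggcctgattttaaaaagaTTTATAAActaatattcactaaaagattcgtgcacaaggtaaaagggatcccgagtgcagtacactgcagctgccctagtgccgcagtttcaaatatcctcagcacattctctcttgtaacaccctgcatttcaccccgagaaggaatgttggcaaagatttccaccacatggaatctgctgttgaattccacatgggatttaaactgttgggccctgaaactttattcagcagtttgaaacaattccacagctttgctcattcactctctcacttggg
Fbln1: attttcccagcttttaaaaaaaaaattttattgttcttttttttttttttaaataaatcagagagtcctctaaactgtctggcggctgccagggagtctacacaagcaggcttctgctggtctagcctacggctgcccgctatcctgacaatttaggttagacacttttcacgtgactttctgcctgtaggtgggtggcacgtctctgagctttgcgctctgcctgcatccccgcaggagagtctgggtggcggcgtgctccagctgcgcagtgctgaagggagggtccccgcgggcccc
In Ogn only TATAAA was found, on both strands at overlapping places, and in this window of Fbln1 none of the 4 motifs was found.

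Epithelial markers moved with the histology. All 8 were lower in spindle carcinomas, by 1.69 to 3.26 on the log2 scale. The mean of the 8 ran from 4.40 over 11.18 to 11.77 in SCC and from 5.10 over 7.45 to 11.43 in spindle carcinomas; all 8 were above the array median on average in both groups. Of the 10 fibroblast markers 3 rose (Pdgfra, S100a4 and Vim) and 1 fell (Thy1); the mean of the 10 ran from 6.99 over 8.29 to 9.77 in SCC and from 7.98 over 8.90 to 9.49 in spindle carcinomas. Endothelial and striated muscle markers gave no call, 2 of 8 macrophage markers (C1qa and C1qc) rose, and of 7 smooth muscle and pericyte markers Cspg4 rose and Mcam fell. Of the 4 adipocyte markers tested Fabp4 fell.

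The 3 spindle mice with epithelial levels above the SCC median had Fn1 between 11.62 and 12.17 and Fbln1 between 8.60 and 9.39, within the SCC range. The 2 SCC mice below the spindle median had Fn1 of 13.07 and 13.24, within the spindle range. The remaining SCC and spindle tumours that went against the label were each averaged with a second tumour of the mouse. Without the 7 arrays whose epithelial markers went against the label, 5 members rose and 6 fell, while 24.9% of all genes rose and 17.1% fell. The share of members called in either direction was not above the background there either. Col6a1 joined those that rose, and Col1a1 (-0.99), Col7a1 (-1.24) and Tnc (-0.82) joined those that fell. That removal used expression values and so widens the contrast by construction. The part of tumour cell content in the member differences was not tested.

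**Figure D4:**
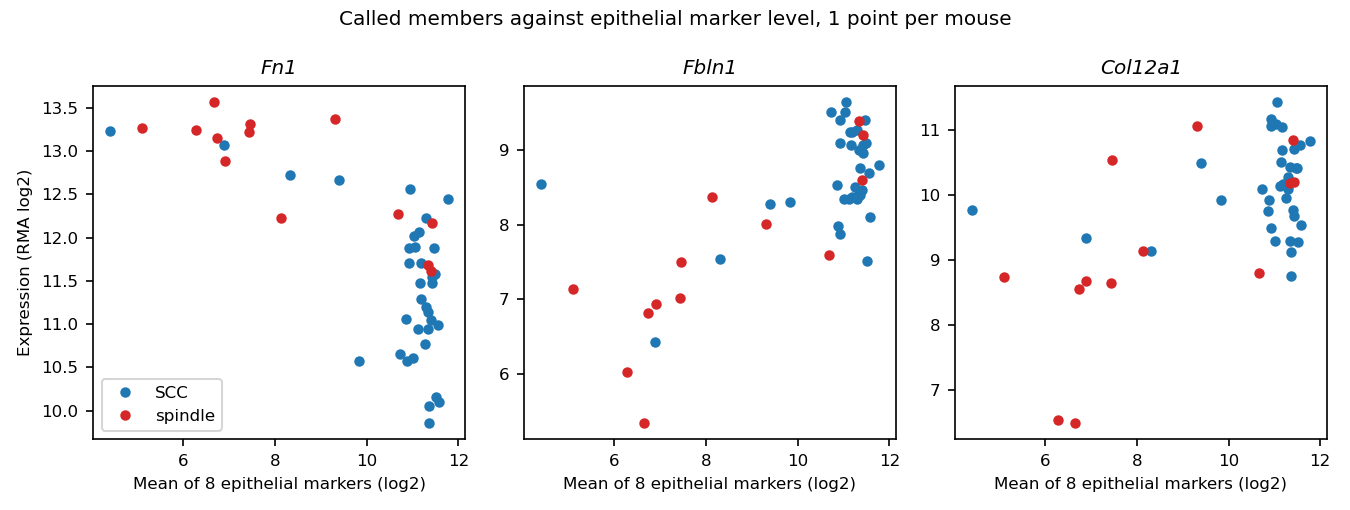
Expression of Fn1, Fbln1 and Col12a1 (y axes, RMA log2) against the mean of 8 epithelial markers (x axis, log2), 1 point per mouse, SCC in blue and spindle in red; the y axes do not start at 0. The 9 mice of lowest epithelial level, 2 of them SCC, have Fn1 of 12.88 or more, and the red points at an epithelial level above 11 lie among the SCC points.

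The other genes of the matrix and its receptors, 93 tested of 121 listed, gave 27 higher and 7 lower. Over all genes tested 15.5% rose and 11.0% fell, and the counts by role below are to be read beside these shares. The share of the 93 that fell was below that of all genes. The median difference of the 93 was 0.16 against 0.02 over all genes. Of 16 collagen and fibronectin receptors 9 rose and 1 fell. Sdc2, a cell-surface proteoglycan, rose by 1.88 ± 0.33 (adjusted p = 0.0002) and the collagen receptor Ddr2 by 1.62 ± 0.35 (adjusted p = 0.000721). Among 21 genes of collagen synthesis, processing and cross-linking 7 rose and 2 fell; Loxl3, a lysyl oxidase, rose by 1.38 ± 0.31 (adjusted p = 0.00103), and P3h2, a prolyl 3-hydroxylase, fell by 1.10 ± 0.23 (adjusted p = 0.000534).

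Of 12 other collagens 1 rose and 2 fell, led by Col17a1, the hemidesmosomal collagen of basal keratinocytes, which fell by 2.49 ± 0.60 (adjusted p = 0.00205), and the transmembrane collagen Col13a1, which fell by 0.88 ± 0.19 (adjusted p = 0.000866). Of 13 elastic fibre and microfibril genes 3 rose and 1 fell; Efemp1, a fibulin relative, rose by 1.38 ± 0.38 (adjusted p = 0.0056) and Ltbp4, which tethers latent TGF-beta, by 0.71 ± 0.19 (adjusted p = 0.00419). Of 10 proteoglycans 2 rose, namely Vcan (versican) by 1.35 ± 0.34 (adjusted p = 0.00247) and Omd (osteomodulin) by 0.90 ± 0.20 (adjusted p = 0.000939). Of 21 matricellular and adhesive glycoproteins 5 rose and 1 fell: Matn2 (matrilin 2) rose by 1.85 ± 0.34 (adjusted p = 0.000235) and Tnn (tenascin N) fell by 1.02 ± 0.38 (adjusted p = 0.0376).

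Because spindle carcinomas are nearly all labelled poor in grade, they were also set against the 9 mice with poorly differentiated SCC. The same spindle mice enter both comparisons. No gene of 12791 passed the threshold in limma (0%), while 2293 genes and 7 of the 34 members had an unadjusted p under 0.05. Col16a1 ran from 7.61 over 8.10 to 8.65 in poorly differentiated SCC, and 11 of 13 spindle mice lay above the highest of them. Its difference was 0.75 ± 0.14 (adjusted p = 0.1355). Fn1 ran from 10.57 over 11.88 to 13.07 in poorly differentiated SCC, with 7 spindle mice above that range, and differed by 1.05 ± 0.31 (adjusted p = 0.148). Dcn ran from 8.91 over 10.56 to 11.93, with 4 spindle mice above that range, and differed by 1.05 ± 0.36 (adjusted p = 0.177). The values of these 3 genes in spindle carcinomas are those given above. Without the 7 arrays whose epithelial markers went against the label 4 members rose and 3 fell, against 23.9% of all genes called. Fn1 (1.59), Dcn (1.35) and Col16a1 (0.80) were among those that rose. The share of members called was not above that background. Here too the removal used expression values and so widens the contrast by construction.

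Within SCC, the grades were compared to ask whether matrix genes follow the loss of differentiation. No member passed the threshold in any of the 3 contrasts, nor did any other gene (0% of 12791). At an unadjusted p under 0.05 limma gave 687 genes for poor minus well, 1089 for poor minus moderate and 318 for moderate minus well, and no member in any of them. The member median was 0.10 for poor minus well, with 26 of 34 differences positive (76.5%, against 52.0% of all genes). It was 0.22 for poor minus moderate, with 31 of 34 positive (91.2%, against 54.4%), and -0.13 for moderate minus well, with 9 positive (26.5%, against 44.6%). The contrasts share groups, and the members correlate with each other, so these counts are not independent. These counts moved with the arrays used. For poor minus well 17 members were positive without the arrays of unmatched sex markers (median 0.00) and 30 without the closest pairs (median 0.22). For poor minus moderate they numbered 22 (median 0.10) and 31 (median 0.20), and for moderate minus well 11 (median -0.11) and 16 (median -0.02).

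Among the members, the largest moderated statistic in 2 of these contrasts belonged to Fbln2, a fibulin of elastic fibres and vessel walls. It ran from 8.71 over 9.94 to 10.72 in well, from 8.30 over 9.96 to 10.72 in moderately and from 9.71 over 10.33 to 10.88 in poorly differentiated SCC. The poorly differentiated tumours occupied the upper part of the range, with no value below 9.71. The difference was 0.52 ± 0.29 against well (adjusted p = 0.889) and 0.52 ± 0.29 against moderate (adjusted p = 0.597).

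For poor minus well, Tnc (0.36 ± 0.27) and Col14a1 (0.54 ± 0.45) followed, both with an adjusted p of 0.906. Col14a1 ran from 5.25 over 6.58 to 8.26 in well and from 4.33 over 7.36 to 9.06 in poorly differentiated SCC, and Tnc from 9.30 over 10.83 to 12.20 and from 10.34 over 11.04 to 12.46. For poor minus moderate, Col6a2 (0.51 ± 0.33, adjusted p = 0.640) and Eln (0.34 ± 0.24, adjusted p = 0.656) followed. Col6a2 ran from 9.12 over 10.47 to 11.86 in moderately and from 9.49 over 10.90 to 11.72 in poorly differentiated SCC, and Eln from 5.82 over 6.40 to 7.48 and from 5.90 over 7.00 to 7.51. The grades overlapped for all 34 members.

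For moderate minus well, Fmod (-0.58 ± 0.40), Eln (-0.28 ± 0.22) and Tnc (0.31 ± 0.25) had the largest statistics, each with an adjusted p of 0.9997. Fmod ran from 4.03 over 5.32 to 7.66 in well and from 3.91 over 5.06 to 6.96 in moderately differentiated SCC. Eln ran from 5.99 over 6.78 to 7.99 in well differentiated SCC and Tnc from 10.10 over 11.38 to 11.69 in moderately differentiated SCC. In poor minus moderate, where 31 members were positive, all 10 fibroblast markers were positive with a median of 0.44, all 8 striated muscle markers with a median of 0.81, and all 8 epithelial markers were negative with a median of -0.52. None passed the threshold, and their part in the member differences was not tested.

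Nodal status was examined with histology as a covariate, in 14 node-positive and 19 node-negative mice. No gene passed the threshold in limma (0%), and 728 genes but only 1 member, Col14a1, had an unadjusted p under 0.05. Col14a1 ran from 5.64 over 7.09 to 9.38 in node-positive and from 3.55 over 6.36 to 7.74 in node-negative mice. Of the 14 node-positive mice, 12 lay above the node-negative median and 4 above every node-negative mouse. The difference was 1.04 ± 0.39 (adjusted p = 0.822), and it was 0.67 within SCC and 2.01 within spindle carcinomas. With the mean of its 3 probe sets it was 0.58.

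Col11a1, a minor fibrillar collagen of cartilage and tumour stroma, followed with -0.68 ± 0.39; it ran from 2.60 over 4.16 to 5.77 in node-positive and from 2.88 over 4.84 to 8.22 in node-negative mice. Col16a1 differed by 0.27 ± 0.16 and ran from 7.30 over 8.67 to 9.69 and from 7.61 over 8.33 to 9.05. Both had an adjusted p of 0.822 and overlapping groups. Positive differences were found for 25 of 34 members (73.5%, against 54.4% of all genes), with a median of 0.11. The count was 19 (median 0.01) without the closest pairs, 21 (median 0.05) without the arrays of unmatched sex markers, 23 (median 0.17) in SCC alone and 17 (median 0.00) in spindle carcinomas alone. All 8 endothelial and all 8 macrophage markers were positive as well and all 8 epithelial markers negative, with medians of 0.39, 0.35 and -0.60, and their part was not tested.

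Whether the nodal difference itself varied with histology was tested by an interaction term, which no gene passed (0%; 936 genes and 2 members, Dcn and Lum, at an unadjusted p under 0.05). Dcn ran from 9.37 over 11.01 to 12.79 in node-positive and from 8.22 over 10.13 to 11.40 in node-negative SCC. In spindle carcinomas the order was the other way, from 10.37 over 10.79 to 11.86 in 4 node-positive and from 10.70 over 12.11 to 12.72 in 5 node-negative mice. The interaction was -1.94 ± 0.69 (adjusted p = 0.656), so it did not hold up against the correction.

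Lum ran from 8.60 over 10.87 to 12.22 and from 8.14 over 10.20 to 11.14 in node-positive and node-negative SCC, and from 8.88 over 10.17 to 11.09 and from 9.82 over 10.86 to 11.71 in the spindle groups. Its interaction was -1.55 ± 0.71 (adjusted p = 0.681). Col7a1 had an interaction of 1.48 ± 0.79 (adjusted p = 0.698); its medians were 8.25 and 8.83 in node-positive and node-negative SCC and 8.67 and 7.27 in the spindle groups. The groups overlapped for all 3 genes. With 4 and 5 mice in the spindle groups, these values are imprecise.

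The papilloma classes relate the matrix of the carcinoma to the mouse's susceptibility to benign tumours. No gene passed the threshold in limma (0%), the SAM-type statistic called 2 genes higher and 1 lower with no member among them, and 1055 genes and 2 members, Eln and Col3a1, had an unadjusted p under 0.05. Differences were negative for 30 of 34 members, meaning lower in resistant mice, with a median of -0.25; over all genes 51.1% were positive and the median was 0.00. Members correlate with each other, so the 30 are not 30 separate observations.

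Eln ran from 5.90 over 6.64 to 7.48 in 17 resistant and from 5.99 over 6.98 to 8.00 in 16 sensitive mice, with 4 resistant mice above the sensitive median. The difference was -0.48 ± 0.16 (adjusted p = 0.509). Col3a1, the type III collagen of young and healing tissue, ran from 11.45 over 13.25 to 13.65 and from 12.23 over 13.59 to 14.07, with only 2 of 17 resistant mice above the sensitive median. Its difference was -0.41 ± 0.19 (adjusted p = 0.587). Postn, periostin, ran from 9.04 over 12.24 to 12.96 and from 11.39 over 12.53 to 13.55, a difference of -0.49 ± 0.24 (adjusted p = 0.607). The upper ends of the resistant ranges fell short of the sensitive ones in these 3 genes, and all ranges overlapped. The lowest resistant values of Col3a1 (11.45) and Postn (9.04) both belong to the single mouse spindle 10. The differences without this mouse alone are not given.

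Grade was spread unevenly over the classes. Among resistant mice with SCC 1 tumour was well, 5 moderately and 4 poorly differentiated, against 7, 2 and 2 among sensitive mice. Within SCC alone the member median was -0.08 with 10 of 34 positive, and the differences were -0.26 for Eln, -0.23 for Col3a1 and -0.07 for Postn. With histology as a covariate the median was -0.36 with 3 positive, and without the arrays of unmatched sex markers -0.38 with 3 positive. The p53 label was also uneven, being positive in more of the resistant than of the sensitive mice, and it was not a covariate in this comparison. Neither grade nor the p53 label can be fully told apart from papilloma class in these mice. The 4 members with positive differences were Thbs1 (0.48), Fn1 (0.28), Col8a1 (0.17) and Col18a1 (0.09), none past the threshold. Of the fibroblast markers 8 of 10 were negative, with a median of -0.26, and all 8 endothelial, 8 epithelial and 8 striated muscle markers were negative too, with medians of -0.28, -0.35 and -0.68. Their part in the member differences was not tested.

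**Figure D5:**
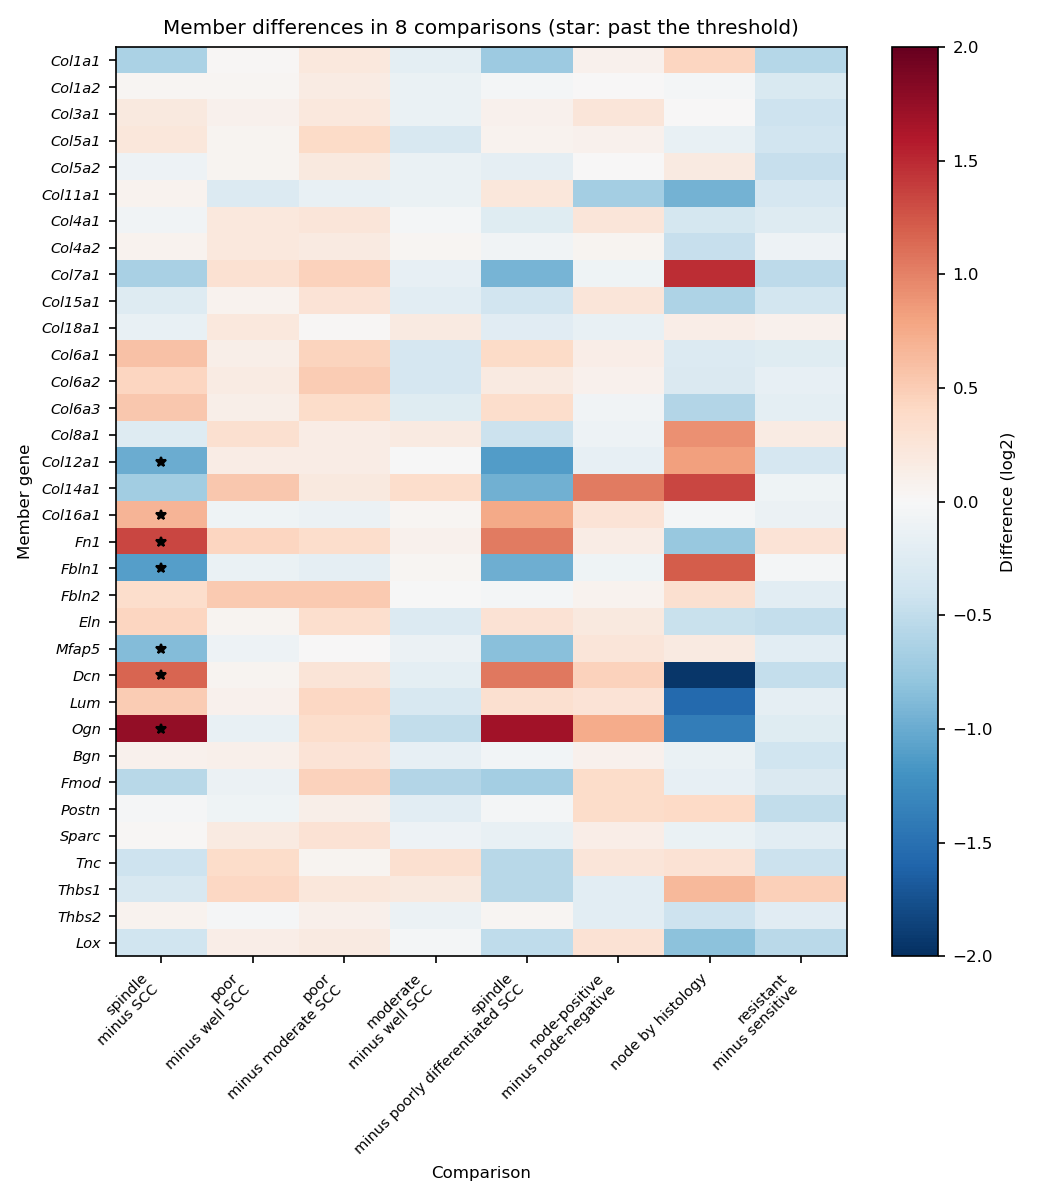
Difference in log2 units (colour, from -2 blue to 2 red) of each of 34 members (rows) in each of 8 comparisons (columns); for node by histology the colour is the interaction term, and a star marks an adjusted p under 0.05. Stars appear in the spindle minus SCC column alone, where 4 are red and 3 blue, and the column for resistant minus sensitive is blue for 30 of 34 members.

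In all, 5 mice gave 2 tumours each by the mouse label. Some of these arrays went against their labels. SCC 22 and spindle 9 had epithelial markers against the histology label, and the sex markers of spindle 8 and spindle 9 did not match. Over gene-centred values SCC 22 correlated at -0.27 with SCC 23, but at 0.89 with SCC 21 of another mouse. By title, SCC 3 and SCC 4 share a tumour number, as do the pair without histology. What their further suffix means is not given. Whether arrays were exchanged was not tested, so the differences below need not lie between tumours of the same animal. The median absolute difference over the 34 members was 0.31 for SCC 7 and SCC 8, and lay between 0.84 and 1.03 for the other 4 pairs. The median SD between SCC mice was 0.71. In those 4 pairs 18 to 21 members differed by more than their SD between SCC mice, and in SCC 7 and SCC 8 only 5 did. A difference of 2 values spreads more widely than single values, so many members of 2 unrelated mice would also exceed 1 SD. Member differences between tumours of different mice were not computed, so these counts do not place the 4 pairs as unusually far apart. The widest gap was Ogn, at 4.67 between spindle 8 and spindle 9, whose epithelial means were 4.70 and 11.6. Of the 34 members 27 were lower in SCC 4 than in SCC 3, 30 were higher in SCC 23 than in SCC 22, 26 were lower in spindle 9 than in spindle 8, and 29 were lower in the second of the tumours without histology.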

How the data were processed

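RNA of 60 carcinomas was hybridised to Affymetrix arrays, and the deposited values are on the log2 scale after robust multi-array averaging (RMA) by the authors. The RMA version and normalisation options are not given in the sources used here. Array medians ran from 4.43 to 4.56. The number of arrays limits the precision. Of 45101 probe sets, 34958 carried 1 gene symbol, 932 several and 9211 none in the platform annotation. The probe set of highest mean stood for a gene, and 12791 of 18194 genes passed a filter that asked for a value over the median of the array in 8 or more tumours. Tumours of a mouse were averaged by the mouse label, so the spread is between mice.

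Groups were compared with limma 3.58.1 in R 4.3.3 (lmFit and eBayes), with Benjamini-Hochberg adjustment over all 12791 genes and a threshold of 0.05. Differences are given ± standard error. Likeness to Col1a1 was tested with 100000 permutations in Python 3.11.15 with numpy 2.4.6. The methods' SAM test was rebuilt, with a false discovery rate of 5% estimated from 100 permutations. The code was tested on simulated data. Alternatives covered the filter, probe sets, scaling, covariates and left-out arrays. The members and all lists were chosen with earlier results of these data known. Named genes were up to 2 members of each role by the size of the spindle minus SCC difference, all called members, the 3 members of largest statistic in the other comparisons, and the 3 highest, 3 lowest and 5 outside genes by r. Other matrix genes were named as up to 2 called genes per role.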

Additional observations from a re-analysis of the deposited data

Results flagged for a closer look

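In groups of 4 to 10 mice, 170 sets of values (34 members in 5 groups) were examined for a highest or lowest mouse that stands apart from the others by more than Dixon's limit. Chance gives about 1 in 20 such sets, and 16 were found. The members correlate and share the same mice, so the sets are not independent and the count cannot be set directly against that share. Several of the 16 belong to the same mouse, spindle 10 or SCC 37. In poorly differentiated SCC the mouse SCC 37 lay low for Col1a2 (11.50, the others 12.71 to 13.80), Col6a1 (9.27, the others 10.56 to 11.57), Col6a2 (9.49, the others 10.69 to 11.72) and Col6a3 (10.12, the others 11.32 to 12.30). In node-negative spindle carcinomas the mouse spindle 10 lay low for Col1a1 (7.65, the others 11.90 to 12.77), Col1a2 (11.20), Col3a1 (11.45), Col5a2 (9.41), Postn (9.04) and Sparc (10.98), and spindle 12 lay high for Thbs1 (10.80, the others 8.97 to 9.44).

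In node-positive SCC the mouse SCC 28 lay low for Col5a2 (10.86) and Postn (11.55), and SCC 24 lay high for Mfap5 (9.80). In resistant mice with SCC, SCC 21 lay low for Fbln1 (6.43) and SCC 14 for Fbln2 (8.71). SCC 21 and SCC 24 are among the mice whose epithelial markers went against the label.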

How the results depend on the processing

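No paired analysis was possible because the tumours of a mouse share the same labels for histology, grade, nodal status and papillomas. The replicate numbers only name the tumours in accession order. In spindle minus SCC, the SAM-type statistic called 8 members higher and 6 lower, and 31.6% of all genes. Members called lower numbered 1 without the arrays of unmatched sex markers, where 1183 of 12791 genes were lower. They numbered 6 without the arrays whose epithelial markers went against the label, where 2186 genes were lower. That last alternative was chosen after seeing the data, as were leaving out the closest pairs and each mouse in turn. With each mouse left out in turn, 4 to 6 members were higher and 2 to 4 lower. Mfap5 missed the threshold without the closest pairs, at a difference of -0.82 (adjusted p = 0.0513) against -0.87 with them; its difference lay between -1.08 and -0.67 over 14 alternatives. For spindle minus poorly differentiated SCC, 4 members were higher and 3 lower without the arrays that went against epithelial markers, against 23.9% of all genes called. Likeness to Col1a1 gave 19 members without the arrays of unmatched sex markers, against 1.75% of all genes, with a median r of 0.66 over 28 mice. It gave 28 to 30 members under the other alternatives, against 3.18% to 5.91% of all genes.

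Some differences, most of them near 0, turned sign in spindle minus SCC. With the mean of probe sets these were Col18a1 (0.0061), Lox (0.0281), Sparc (-0.0083) and Thbs2 (-0.1011). That setting takes in the other probe sets of a gene. For Lox the probe set used gave -0.40 and the others 0.75 and -0.27. For Col18a1 these were -0.15 and 0.16, for Thbs2 0.06 against -0.24 and -0.13, and for Sparc 0.02 against -0.02 and -0.02. With a common 75th percentile Col1a2 (-0.0058) and Sparc (-0.0181) turned. With sex as a covariate Col1a2 (-0.0134) and Col11a1 (-0.0058) turned, and with origin as a covariate Col4a1 (0.0197) and Postn (0.0273). Without the arrays that went against epithelial markers Col1a2 (-0.0307) and Thbs2 (-0.0927) turned. Without the closest pairs Col11a1 (-0.0272) turned, and without the arrays of unmatched sex markers Col4a1 (0.0102). Without the arrays of largest Gapdh difference Postn (0.013) turned, and with every tumour kept Sparc (-0.0099). The cause of the changes under settings other than the mean of probe sets was not tested. The random block for mouse could not be fitted for spindle minus poorly differentiated SCC.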
